A study of Mus musculus with 10 samples.

Results

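The genes described here handle iron and heme in mouse FDB1 cells: Slc40a1, Tfrc, Slc11a1, Slc11a2, Fth1, Hmox1, Hp and Hba-a1. They were taken by gene symbol, and the set was chosen with earlier results of these data known. All 8 were found among the 15097 genes with a symbol on the array, on 9 probes of which Tfrc had 2. FDB1 is a myeloid progenitor cell line that needs IL-3 to grow. The Y577F cells carried the receptor subunit FI-Delta Y577F, in which a tyrosine is exchanged for phenylalanine, and the FI-Delta cells carried FI-Delta itself. FI-Delta is a constitutively active form of the beta subunit that the receptors for GM-CSF, IL-3 and IL-5 have in common. Each line was sampled after 3 washes and 72 h without added factor (72 h), and while growing with 500 U/mL IL-3 and 10% fetal calf serum (0 h). RNA of 2 groups was hybridised together on each of 10 two-colour spotted oligonucleotide arrays. Y577F 72 h was set against Y577F 0 h on 2 arrays, FI-Delta 72 h against FI-Delta 0 h on 3, Y577F against FI-Delta at 72 h on 2 and Y577F against FI-Delta at 0 h on 3. Arrays are numbered within each of these 4 sides of the design.

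Several facts limit how these groups can be read. The replicate numbers in the labels were read as 2 cultures per line, which could not be checked. Whether a line is 1 clone is not given in the sources used here. Both lines carried an activated receptor, and 72 h cells kept with IL-3 and FDB1 cells without the mutant receptors were not analysed here. The loss of factor, the washes and the time in culture therefore cannot be told apart. A value is a log2 ratio between the RNAs on an array, so it gives no level of a gene in a single sample and cannot show whether a defining marker of the cell type is present. In bulk RNA, fewer cells of a type and less RNA per cell cannot be told apart. FI-Delta time arrays 1 and 2 carried 1 pair of RNAs with the dyes exchanged and were averaged, and other arrays share RNA extracts, so the p-values reflect the spread between these hybridisations. The labels give neither the log base nor which dye is the numerator. Base 2 and Cy5 over Cy3 are likely, and with the opposite numerator every direction below would be the reverse. At 0 h, array 1 had the opposite dye assignment to arrays 2 and 3, and its turned values correlated with theirs across features at r = 0.09 and r = -0.04, so the relative orientation at 0 h is not settled by the values over all features.

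Iron enters most cells as transferrin bound to the transferrin receptor, encoded by Tfrc, and DMT1, encoded by Slc11a2, then carries ferrous iron out of the endosome. Iron that is not used is stored inside ferritin shells, which contain the heavy chain encoded by Fth1, or leaves through ferroportin, the iron exporter encoded by Slc40a1. Macrophages also gain iron from hemoglobin: haptoglobin, encoded by Hp, binds the free protein in plasma, heme oxygenase 1, encoded by Hmox1, opens the heme ring and releases its iron, and NRAMP1, encoded by Slc11a1, moves metal ions out of the phagosome. Iron regulatory proteins are known to stabilise Tfrc mRNA and to block Fth1 and Slc40a1 translation when iron is scarce. Hba-a1 encodes the alpha chain of hemoglobin, the main heme protein of red cells, and Hp is also made in developing granulocytes.

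After 72 h without factor, 5 of the 8 genes were higher and 2 lower in Y577F cells, and 3 were higher and 1 lower in FI-Delta cells. Slc40a1, Fth1 and Hp rose and Hba-a1 fell in each line. Slc11a1 and Hmox1 rose and Tfrc fell in Y577F cells, while these 3 genes were not called in FI-Delta cells. The differences of the 72 h change between the lines passed the test for 6 genes, all but Slc11a2 and Hp. A gene was called at a Benjamini-Hochberg adjusted p under 0.05 in a limma fit over all 20243 features of the array. In that fit, 9.28% of all features were called higher and 8.75% lower over 72 h in Y577F cells. In FI-Delta cells the same shares were 5.19% higher and 2.97% lower. Between the lines 6.44% were higher and 6.45% lower in Y577F cells at 72 h, and 0.934% were higher and 0.484% lower at 0 h. The difference of the 72 h changes was called positive in 4.33% and negative in 4.91%. The median log2 change of the 8 genes was 0.60 in Y577F cells, beside 0.01 over all features, and 0.18 in FI-Delta cells, beside -0.01 over all features. The comparisons share RNA groups and are therefore not independent of each other.

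**Figure D1:**
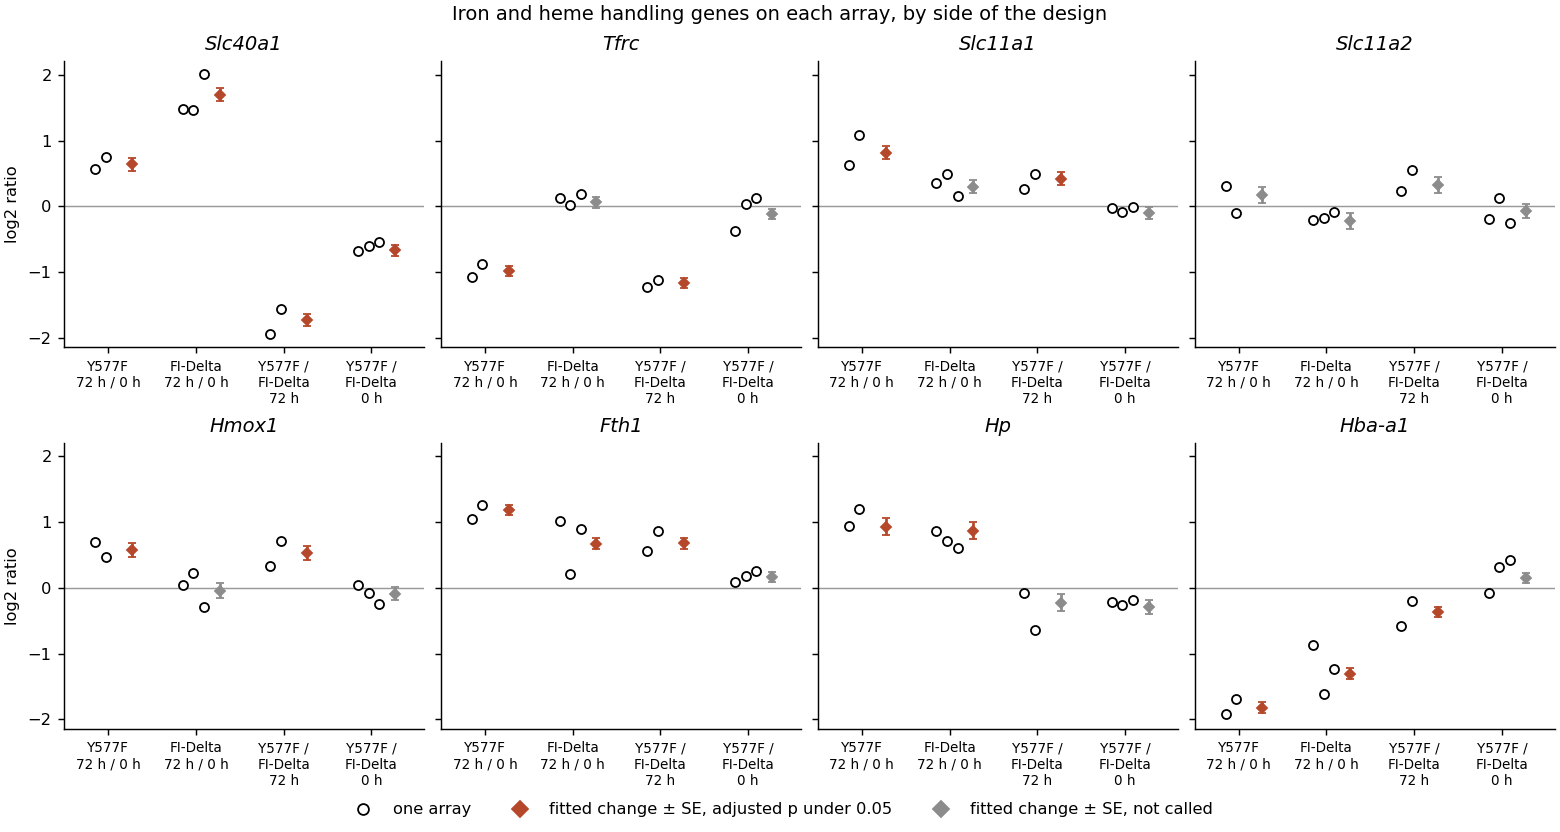
Turned log2 ratios of the 8 genes on each array (open circles) and the fitted log2 change ± SE (diamonds, red-brown where the adjusted p was under 0.05, grey otherwise), by side of the design on the x axis. All Slc40a1 values lie above 0 on the time arrays and below 0 on the arrays between lines, Tfrc lies near -1 on the Y577F time arrays and on the 72 h arrays between lines, and Hba-a1 lies below 0 on all 5 time arrays.

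Slc40a1 encodes ferroportin, the only known iron exporter of mammalian cells, and its log2 ratio of 72 h over 0 h was 0.57 and 0.75 on the 2 Y577F arrays. On the 3 FI-Delta arrays it was 1.48, 1.47 and 2.01. All 5 values are positive and the FI-Delta values lie above both Y577F values. In the fit, the log2 change was 0.64 ± 0.10 (SE) in Y577F cells, a 1.55-fold rise (limma adjusted p = 0.000642), and 1.70 ± 0.10 in FI-Delta cells, a 3.24-fold rise (limma adjusted p = 3.96e-06). The rise in Y577F cells was smaller by 1.06 ± 0.11 on the log2 scale (limma adjusted p = 0.000153).

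Between the lines, Slc40a1 was the one gene of the 8 that was called at 0 h, before the factor was withdrawn. At 0 h its log2 ratio of Y577F over FI-Delta was -0.68, -0.60 and -0.55, with a fitted value of -0.67 ± 0.09 (limma adjusted p = 0.00271). At 72 h it was -1.94 and -1.56, with a fitted value of -1.73 ± 0.10, which is 3.31-fold lower in Y577F cells (limma adjusted p = 4.82e-07). All 5 arrays between the lines gave lower ferroportin mRNA in Y577F cells. The 0 h difference was not called in a fit that had 1 coefficient per RNA extract and left out the dye term (log2 -0.63, limma adjusted p = 0.361). Fitted levels relative to the mean of the 4 RNA groups, on the log2 scale, were -0.28 in Y577F 72 h and -0.92 in Y577F 0 h cells, and 1.45 in FI-Delta 72 h and -0.25 in FI-Delta 0 h cells. Y577F 72 h and FI-Delta 0 h cells are neighbours in this order and were not distinguished, with a difference of -0.03 (95% interval -0.27 to 0.21).

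Tfrc, which takes up transferrin-bound iron, behaved otherwise. Its log2 ratio of 72 h over 0 h, as the mean of 2 probes, was -1.08 and -0.88 on the Y577F arrays. On the FI-Delta arrays it was 0.13, 0.01 and 0.18, so the values of the lines do not overlap. Fitted over all arrays, the change was -0.98 ± 0.08 in Y577F cells, 1.98-fold lower at 72 h than at 0 h (limma adjusted p = 8.09e-06). In FI-Delta cells it was 0.06 ± 0.08 with a 95% interval of -0.12 to 0.25 (limma adjusted p = 0.767). The 2 changes differed by -1.05 ± 0.09 (limma adjusted p = 6.28e-05).

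At 72 h the log2 ratio of Tfrc in Y577F over FI-Delta cells was -1.23 and -1.12, a fitted -1.17 ± 0.08 (limma adjusted p = 2.72e-06). At 0 h it was -0.37, 0.03 and 0.12, on both sides of 0, and the fitted -0.12 ± 0.07 was not called (limma adjusted p = 0.557). Relative to the mean of the 4 groups the Tfrc level was -0.81 in Y577F 72 h and 0.17 in Y577F 0 h cells, and 0.35 in FI-Delta 72 h and 0.29 in FI-Delta 0 h cells. No pair among the other groups had a 95% interval that excluded 0. The 2 Tfrc probes gave -1.02 and -1.13 on the first Y577F time array and -0.88 each on the second. They lay farther apart on FI-Delta time array 3, at -0.07 and 0.44, and on 0 h array 1, at -0.54 and -0.21.

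Slc11a1 encodes NRAMP1, a metal transporter of the phagosome membrane of macrophages and neutrophils. Its log2 ratio of 72 h over 0 h was 0.63 and 1.09 on the Y577F arrays and 0.36, 0.49 and 0.15 on the FI-Delta arrays. All values are positive, and both Y577F values exceed the 3 FI-Delta values. The fit gave a log2 change of 0.82 ± 0.10 in Y577F cells (1.76-fold, limma adjusted p = 0.000165). In FI-Delta cells it was 0.30 ± 0.10 and was not called (limma adjusted p = 0.118).

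The difference of these Slc11a1 changes was 0.52 ± 0.12 (limma adjusted p = 0.0172). It was not called without 72 h array 2 (0.52, limma adjusted p = 0.081) or without Y577F time array 2 (0.40, limma adjusted p = 0.0609). At 72 h, Slc11a1 had log2 ratios of 0.26 and 0.49 in Y577F over FI-Delta cells, a fitted 0.42 ± 0.10 (limma adjusted p = 0.0173). That call was lost without 72 h array 1 (limma adjusted p = 0.0597) and without 72 h array 2 (limma adjusted p = 0.119). At 0 h the 3 log2 ratios were -0.03, -0.09 and -0.01, close to 0, and the fitted -0.10 ± 0.09 was not called. In FI-Delta cells the 72 h change was called when the dye swap arrays entered separately (0.35, limma adjusted p = 0.0264) and under array weights (0.38, limma adjusted p = 0.00539).

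Slc11a2, which encodes DMT1, passed the test in none of the 5 comparisons of the limma fit. Before adjustment, limma gave a p of 0.0178 for Y577F over FI-Delta at 72 h and of 0.013 for the difference of the 72 h changes. The log2 ratio of 72 h over 0 h was 0.31 and -0.10 on the Y577F arrays and -0.21, -0.18 and -0.08 on the FI-Delta arrays. In Y577F over FI-Delta cells at 72 h it was 0.23 and 0.55, and at 0 h it was -0.19, 0.12 and -0.26. The Y577F time arrays therefore disagreed in sign. Without Y577F time array 2 the fitted ratio of the lines at 72 h was 0.41 (limma adjusted p = 0.022) and the difference of changes was 0.56 (limma adjusted p = 0.0219). Without 72 h array 2 these values were lower, at 0.16 (limma adjusted p = 0.645) and 0.25, and neither was called. With all arrays they were 0.32 ± 0.12 (limma adjusted p = 0.0998) and 0.39 ± 0.13 (limma adjusted p = 0.0975).

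Fth1, the ferritin heavy chain that oxidises and stores iron, had the largest rise of the 8 genes in Y577F cells. Its log2 ratio of 72 h over 0 h was 1.05 and 1.25 on the Y577F arrays. On the FI-Delta arrays it was 1.02, 0.22 and 0.90. The first 2 of these FI-Delta values are from the same RNA with the dyes exchanged and differ by more than any other repeat of this gene. The fitted log2 change was 1.19 ± 0.08 in Y577F cells (2.27-fold, limma adjusted p = 1.96e-06) and 0.67 ± 0.08 in FI-Delta cells (1.59-fold, limma adjusted p = 0.000428).

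The rise of Fth1 was larger in Y577F cells by 0.51 ± 0.09 (limma adjusted p = 0.00509). With the direct arrays alone this difference was 0.45 and was not called (limma adjusted p = 0.178). At 72 h the log2 ratio of Y577F over FI-Delta cells was 0.56 and 0.86, a fitted 0.68 ± 0.08 (limma adjusted p = 0.000165). At 0 h it was 0.10, 0.19 and 0.26, all positive, but the fitted 0.17 ± 0.07 was not called (limma adjusted p = 0.384). The order of the fitted levels was Y577F 72 h at 0.80, FI-Delta 72 h at 0.12, Y577F 0 h at -0.38 and FI-Delta 0 h at -0.55, and the 95% interval of each neighbouring pair, unadjusted, excluded 0. Ferritin genes have near-identical processed copies in the genome, and the probe sequence was not analysed here, so which copies the probe detects is uncertain.

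Hmox1, the enzyme that breaks heme down to biliverdin, carbon monoxide and iron, had log2 ratios of 72 h over 0 h of 0.70 and 0.47 on the Y577F arrays. On the FI-Delta arrays the ratios were 0.04, 0.23 and -0.29, on both sides of 0 and below both Y577F values. The fitted log2 change was 0.57 ± 0.11 in Y577F cells (1.49-fold, limma adjusted p = 0.00351), and without Y577F time array 1 it was 0.51 and not called (limma adjusted p = 0.0646). In FI-Delta cells it was -0.04 ± 0.12 with a 95% interval of -0.30 to 0.21 (limma adjusted p = 0.894). The changes differed by 0.62 ± 0.13 (limma adjusted p = 0.011).

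At 72 h, Hmox1 in Y577F over FI-Delta cells was 0.33 and 0.71 on the log2 scale, a fitted 0.53 ± 0.11 (limma adjusted p = 0.00754). Without 72 h array 2 this value was 0.36 (limma adjusted p = 0.152) and the difference of the changes was 0.47 (limma adjusted p = 0.0932). At 0 h it was 0.04, -0.07 and -0.24, and the fitted -0.08 ± 0.10 was not called. The fitted level was 0.40 in Y577F 72 h cells, and the other groups lay between -0.17 and -0.09 with no pair among them distinguished.

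Hp, which encodes haptoglobin, rose in each line. Its log2 ratio of 72 h over 0 h was 0.94 and 1.20 on the Y577F arrays and 0.86, 0.72 and 0.61 on the FI-Delta arrays. The fitted log2 change was 0.93 ± 0.13 in Y577F cells (1.91-fold, limma adjusted p = 0.00031) and 0.87 ± 0.13 in FI-Delta cells (1.82-fold, limma adjusted p = 0.00154). The difference was 0.07 ± 0.14 with a 95% interval of -0.25 to 0.38 (limma adjusted p = 0.829). All 5 arrays between the lines were negative, at -0.07 and -0.64 at 72 h and at -0.22, -0.26 and -0.18 at 0 h. Neither fitted value was called, with -0.22 ± 0.13 at 72 h (limma adjusted p = 0.302) and -0.29 ± 0.11 at 0 h (limma adjusted p = 0.321). Without 72 h array 2 the fitted 72 h value was 0.05, with the opposite sign (limma adjusted p = 0.893), and the difference of the changes was 0.31, against -0.12 without Y577F time array 2, neither of them called. Its 4 sides also closed least well of the 8 genes: the sum of the log2 ratios round the loop, which would be 0 without error, was -0.50 ± 0.26 for Hp (limma adjusted p = 0.999), and no feature of the array had a sum that was called.

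Hba-a1, the adult alpha globin, fell furthest of the 8 genes. Its log2 ratio of 72 h over 0 h was -1.91 and -1.69 on the Y577F arrays. On the FI-Delta arrays it was -0.87, -1.62 and -1.23, and the first 2 of these are again the dye swap of the same RNA. All 5 values are negative, and both Y577F values lie below the 3 FI-Delta values. The fitted log2 change was -1.82 ± 0.08 in Y577F cells, 3.53-fold lower at 72 h (limma adjusted p = 1.33e-07), and -1.30 ± 0.08 in FI-Delta cells, 2.46-fold lower (limma adjusted p = 6.79e-06).

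The fall of Hba-a1 was larger in Y577F cells by a log2 difference of -0.52 ± 0.09 (limma adjusted p = 0.00483), a call that was lost with the direct arrays alone (-0.48, limma adjusted p = 0.157). At 72 h the log2 ratio of Y577F over FI-Delta was -0.58 and -0.20, a fitted -0.37 ± 0.08 (limma adjusted p = 0.0105). That call was lost without 72 h array 1 (-0.34, limma adjusted p = 0.11) and without 72 h array 2 (-0.37, limma adjusted p = 0.0755). At 0 h the values were -0.07, 0.32 and 0.42, and the fitted 0.15 ± 0.07 was not called (limma adjusted p = 0.43). Alpha globin is encoded by near-identical neighbouring genes, so the Hba-a1 probe may also detect the other copy. Of 3 embryonic globins, none was called in either line. Hba-x was at 0.00 in Y577F and -0.03 in FI-Delta cells, Hbb-bh1 at -0.11 and -0.03, and Hbb-y at -0.21 and -0.01. Adult beta globin was not analysed here.

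**Figure D2:**
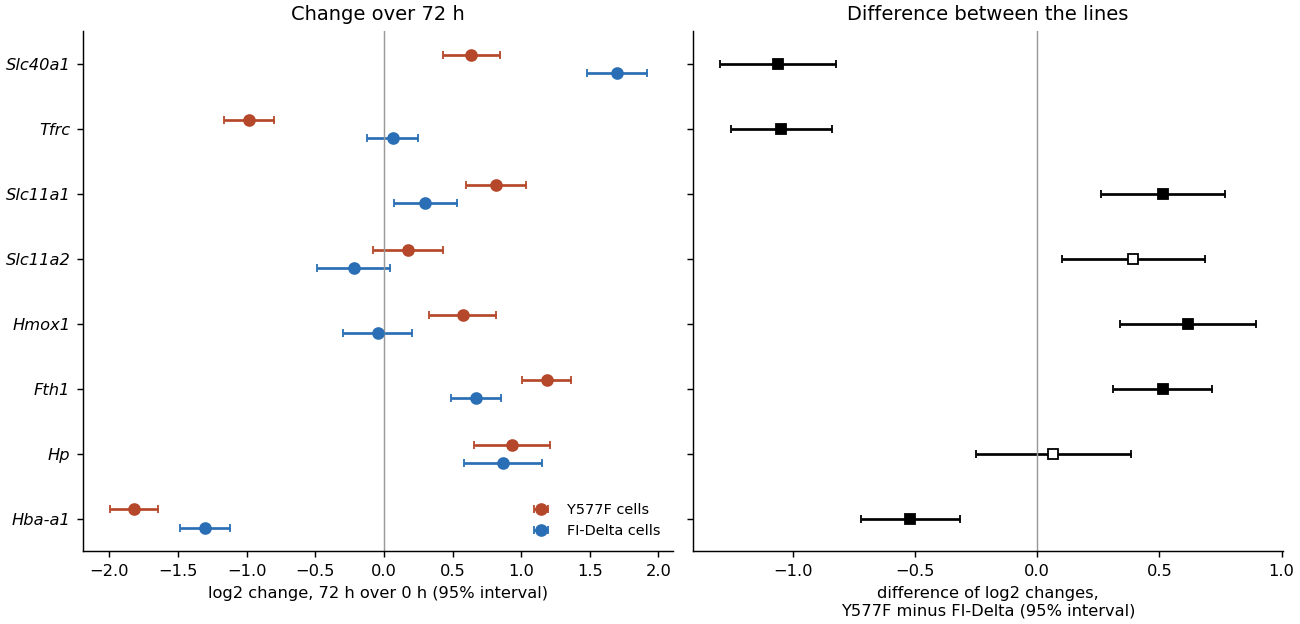
Left, fitted log2 change of 72 h over 0 h with its 95% interval for each gene in Y577F cells (red-brown, upper of each pair) and FI-Delta cells (blue, lower). Right, the difference of the changes, Y577F minus FI-Delta, with its 95% interval (filled where the adjusted p was under 0.05), which is negative for Slc40a1, Tfrc and Hba-a1, positive for Slc11a1, Hmox1 and Fth1, and not called for Slc11a2 and Hp.

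**Figure D3:**
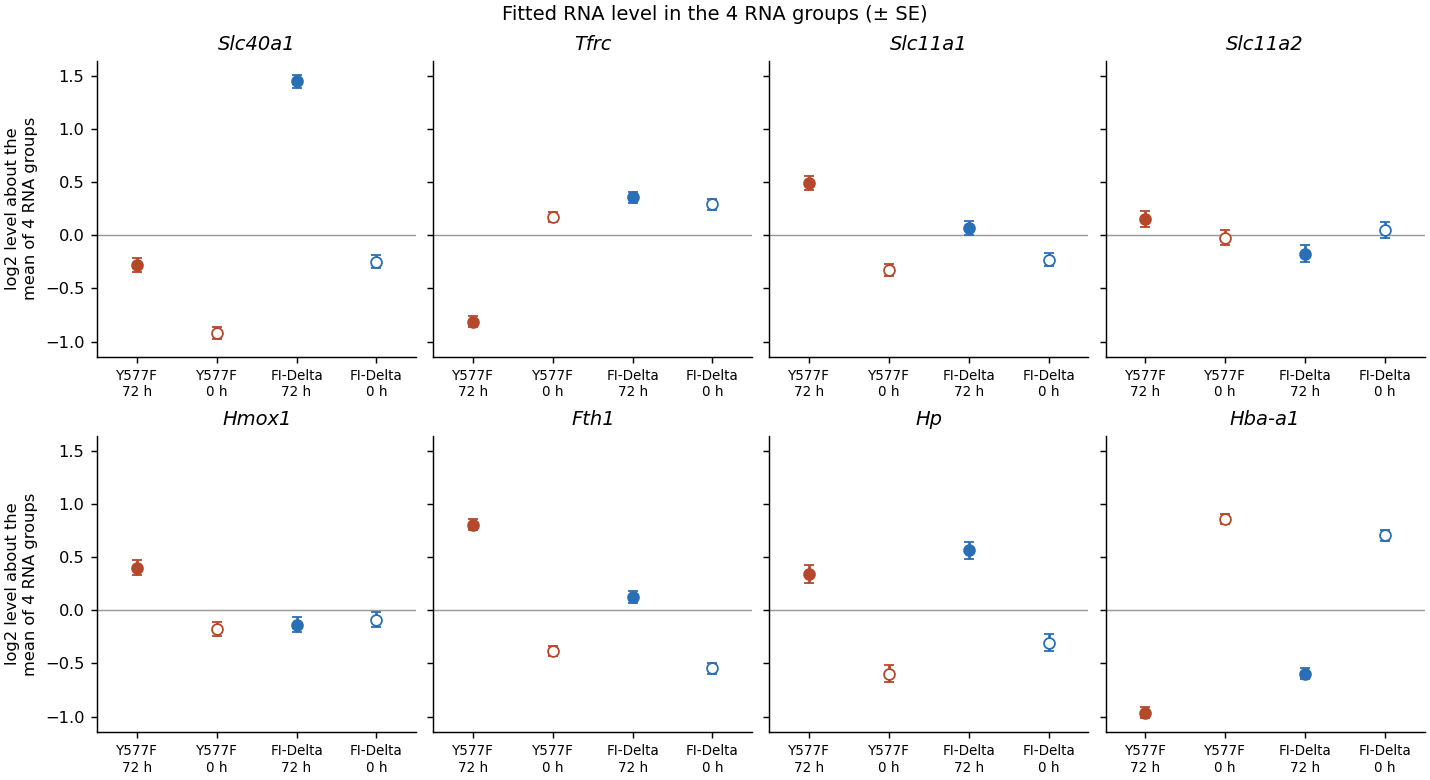
Fitted log2 level of each gene (± SE) in Y577F 72 h, Y577F 0 h, FI-Delta 72 h and FI-Delta 0 h cells, relative to the mean of the 4 groups (filled, 72 h; open, 0 h). Y577F 72 h cells stand apart as the lowest group for Tfrc and the highest for Hmox1 and Fth1, and FI-Delta 72 h cells as the highest for Slc40a1.

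The promoters of genes that moved in opposite directions in Y577F cells are shown for reference, since Hba-a1 and Tfrc fell while Fth1 and Slc11a1 rose. RefSeq starts (GRCm38.p6, plus strand) were matched for 4 of the 8 genes, and each window runs from 250 bases before the start to 30 bases after it. Tfrc and Fth1 have 2 listed starts each, of which the downstream one is printed. The windows are chr11:32283422-32283701 for Hba-a1, chr16:32608872-32609151 for Tfrc, chr19:9982396-9982675 for Fth1 and chr1:74374953-74375232 for Slc11a1. Capitals mark matches, on either strand, to the 5 short promoter motifs spelled out after the sequences, and no 2 matches overlap in the printed windows.
Hba-a1: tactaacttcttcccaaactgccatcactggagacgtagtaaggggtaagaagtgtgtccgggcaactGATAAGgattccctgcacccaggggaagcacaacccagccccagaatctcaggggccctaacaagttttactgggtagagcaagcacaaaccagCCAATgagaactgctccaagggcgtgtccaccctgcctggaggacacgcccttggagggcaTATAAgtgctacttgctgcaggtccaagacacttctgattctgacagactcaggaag
Tfrc: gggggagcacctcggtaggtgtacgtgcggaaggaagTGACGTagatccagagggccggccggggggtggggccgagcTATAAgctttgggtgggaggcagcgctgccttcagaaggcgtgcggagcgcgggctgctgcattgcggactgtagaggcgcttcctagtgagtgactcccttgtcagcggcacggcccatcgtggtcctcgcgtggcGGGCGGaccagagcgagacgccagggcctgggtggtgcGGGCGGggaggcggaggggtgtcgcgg
Fth1: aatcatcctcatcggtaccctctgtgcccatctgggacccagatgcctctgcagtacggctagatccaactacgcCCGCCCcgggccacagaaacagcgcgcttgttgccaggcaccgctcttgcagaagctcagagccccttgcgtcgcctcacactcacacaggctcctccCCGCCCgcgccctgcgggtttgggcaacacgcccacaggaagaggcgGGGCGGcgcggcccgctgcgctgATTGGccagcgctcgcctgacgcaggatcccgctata
Slc11a1: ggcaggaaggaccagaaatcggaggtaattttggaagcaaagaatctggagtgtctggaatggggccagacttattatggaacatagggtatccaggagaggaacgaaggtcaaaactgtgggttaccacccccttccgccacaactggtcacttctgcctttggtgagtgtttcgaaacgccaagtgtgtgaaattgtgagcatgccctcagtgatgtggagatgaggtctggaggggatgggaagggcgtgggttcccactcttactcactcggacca

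The motifs searched were TATAA, the CCAAT box, the GC box core GGGCGG, a red cell GATA factor motif with the letters GATAAG, and the cyclic AMP response element core TGACGT. Hba-a1 holds TATAA at -27, CCAAT at -88 and GATAAG at -182, counted from the start to the match's leftmost base. Of 32851 such windows of all genes, 24.0% hold TATAA, 36.1% CCAAT and 7.1% GATAAG. Tfrc holds GGGCGG at -35 and 4, TATAA at -172 and TGACGT at -213. Fth1 holds GGGCGG, on either strand, at -30, -77 and -175 and CCAAT on the minus strand at -7. GGGCGG is in 34.7% and TGACGT in 7.3% of all windows. The Slc11a1 window has no match to these letters. A match is a string of letters and no measure of binding.

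Iron uptake, transport and export genes other than the 8 numbered 15 measured genes. Over 72 h, 3 of them rose and 1 fell in Y577F cells, and 2 rose and 1 fell in FI-Delta cells. None of the 4 Y577F calls held without each array in turn, the largest being the ferroxidase ceruloplasmin, Cp (log2 1.03 ± 0.30, limma adjusted p = 0.0339). All 3 FI-Delta calls held: lactoferrin, Ltf, rose by 2.45 ± 0.23 (limma adjusted p = 6.45e-05), the siderophore-binding Lcn2 rose by 1.29 ± 0.10 (limma adjusted p = 2.37e-05), and transferrin, Trf, fell by 1.02 ± 0.14 (limma adjusted p = 0.00109). Ltf and Lcn2 are also neutrophil granule proteins. Without FI-Delta time array 1, 72 h array 2 or 0 h array 3, 2 genes fell in FI-Delta cells. In Y577F cells Ltf, Lcn2 and Trf were at 0.24 ± 0.22, 0.16 ± 0.10 and -0.10 ± 0.14, none of them called. The differences of the changes were -2.21 ± 0.26 for Ltf (limma adjusted p = 0.00034), -1.13 ± 0.12 for Lcn2 (limma adjusted p = 0.000153) and 0.92 ± 0.16 for Trf (limma adjusted p = 0.00428).

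At 72 h, 4 of these 15 genes were higher and 3 lower in Y577F than in FI-Delta cells, with 1 higher when 72 h array 1 was left out. Trf was 1.48 ± 0.14 higher on the log2 scale (limma adjusted p = 2.88e-05), while Ltf was at -3.48 ± 0.22 (limma adjusted p = 1.62e-06) and Lcn2 at -1.91 ± 0.10 (limma adjusted p = 3.34e-07). At 0 h none was higher and 2 were lower, Lcn2 at -0.79 ± 0.09 (limma adjusted p = 0.00136) and Ltf at -1.27 ± 0.20 (limma adjusted p = 0.00859), of which Ltf was not called without 0 h array 1. Thus Slc40a1, Ltf and Lcn2 were each lower in Y577F than in FI-Delta cells at both times. In the fit with 1 coefficient per RNA extract and no dye term, none of these 0 h differences was called. Ltf and Lcn2 are also counted among the 16 neutrophil granule markers below.

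Among 13 other iron storage and iron sensing genes, 2 rose and none fell in Y577F cells, and 1 rose and none fell in FI-Delta cells. The ferritin light chain, Ftl1, rose by 0.60 ± 0.11 in Y577F cells (limma adjusted p = 0.00207), a call that held without each array in turn. The Ftl1 call was lost in the fit with 1 coefficient per RNA extract and no dye term. The call of the other gene, Hfe at 0.46, was lost without Y577F time array 1 and without Y577F time array 2. In FI-Delta cells Ftl1 was at 0.41 ± 0.11 (limma adjusted p = 0.0437), and leaving out any of 6 arrays, FI-Delta time arrays 2 and 3 among them, ended the call and left 0 genes. The median change of the 13 genes was -0.01 in Y577F cells and -0.05 in FI-Delta cells. Neither Aco1 nor Ireb2, which encode the iron regulatory proteins, was called: Aco1 was at 0.25 in Y577F and 0.22 in FI-Delta cells, and Ireb2 at -0.06 and -0.16.

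Heme and hemoglobin clearance genes other than Hmox1 and Hp numbered 12. In Y577F cells 4 of them rose and none fell, and in FI-Delta cells 2 rose and none fell. Biliverdin reductase B, Blvrb, rose by 1.19 ± 0.12 in Y577F cells (limma adjusted p = 3.77e-05). Blvra, the main biliverdin reductase, rose by 0.68 ± 0.12 (limma adjusted p = 0.0015), and Lrp1, the receptor for hemopexin-bound heme, by 0.81 ± 0.11 (limma adjusted p = 0.00028). These 3 calls held without each array in turn, and neither of the 2 FI-Delta calls did, the Blvrb value there being 0.51 ± 0.12 (limma adjusted p = 0.027). Without FI-Delta time array 2 or 3, or without 0 h array 1 or 72 h array 2, 0 of the 12 were called in FI-Delta cells. The difference of the changes was called for Blvrb, at 0.68 ± 0.14 (limma adjusted p = 0.0107). The median change of the 12 genes was 0.22 in Y577F and 0.12 in FI-Delta cells, beside the medians over all features given above.

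Heme synthesis genes numbered 14, of which 1 rose and 2 fell in Y577F cells and 1 rose and none fell in FI-Delta cells. Alas1, the first enzyme of the pathway outside the red cell lineage, rose by 0.80 ± 0.10 in Y577F cells (limma adjusted p = 0.000152), the one call of this list that held without each array in turn. The 2 lower genes were Alad and Abcb10, and without Y577F time array 2 neither was called and 2 genes rose. The FI-Delta call, Tspo at 0.42, was lost without FI-Delta time array 1, without 72 h array 2 and without Y577F time array 1. Alas2, the red cell form of the first enzyme, changed by 0.00 in Y577F and -0.03 in FI-Delta cells and was not called. The median change was 0.06 in Y577F and 0.00 in FI-Delta cells.

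**Figure D4:**
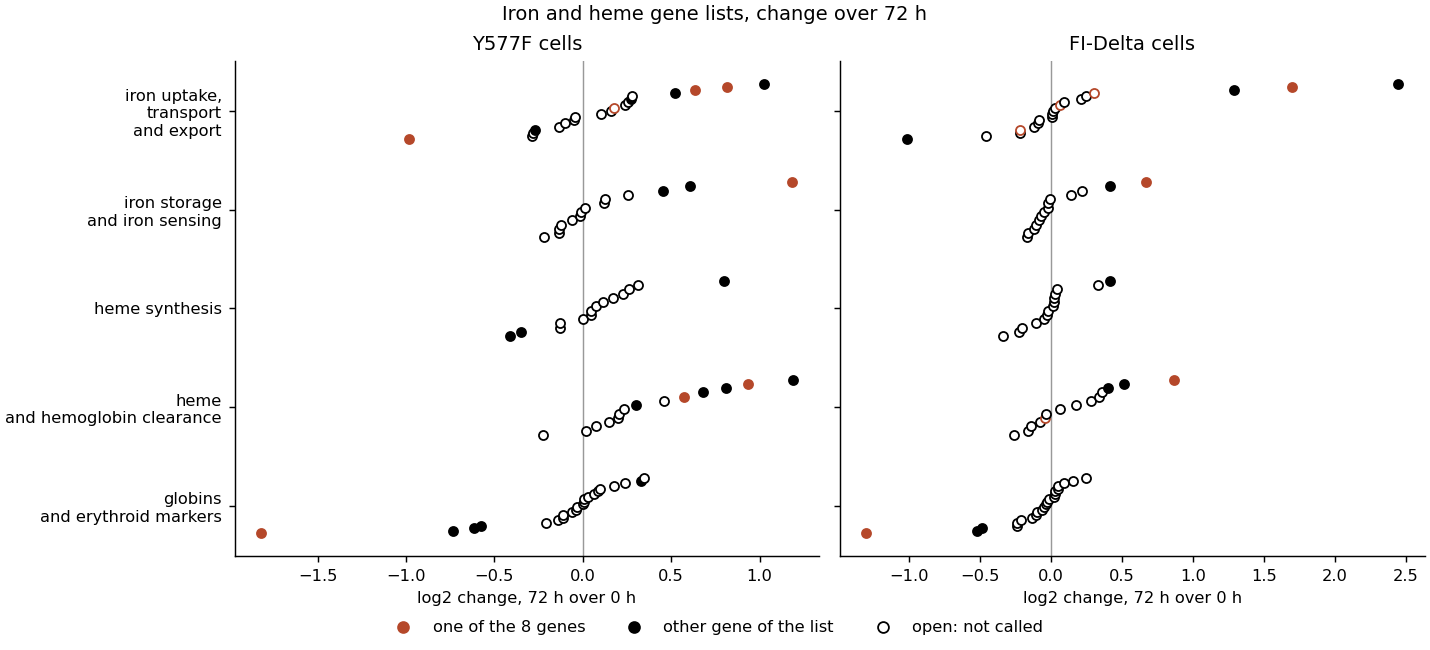
Log2 change of 72 h over 0 h for each measured gene of 5 lists in Y577F cells (left) and FI-Delta cells (right), each point a gene and its height within a list its rank (filled, adjusted p under 0.05; open, not called; red-brown, one of the 8 genes). Hba-a1 lies far below the other globin and erythroid genes in each line, and the largest values in FI-Delta cells are Ltf, Slc40a1 and Lcn2.

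Erythroid values stand beside the fall of Hba-a1. Of 21 other globins and erythroid markers, 1 rose and 3 fell in Y577F cells, and none rose and 2 fell in FI-Delta cells, with median changes of 0.00 and -0.03. The blood group protein gene Kel fell by 0.74 ± 0.11 in Y577F cells (limma adjusted p = 0.000472) and the transcription factor gene Nfe2 fell by 0.58 ± 0.09 (limma adjusted p = 0.000728). Zfpm1 was called lower in each line, as Hba-a1 was, at -0.61 in Y577F and -0.49 in FI-Delta cells. Of 10 fits that left out an array, the Zfpm1 call held in 9 for Y577F cells and in 3 for FI-Delta cells. In FI-Delta cells the blood transcription factor gene Tal1 fell by 0.52 ± 0.08 (limma adjusted p = 0.00238), while in Y577F cells it was at -0.14 ± 0.08 and not called. The FI-Delta call was lost in the fit with 1 coefficient per RNA extract and no dye term. At 72 h, 3 of the 21 were higher and 2 lower in Y577F than in FI-Delta cells, with 0 lower without 72 h array 2 and 1 lower without 72 h array 1. Tal1 was higher by 0.86 ± 0.08 (limma adjusted p = 2.67e-05) and the carbonic anhydrase gene Car2 by 0.65 ± 0.11 (limma adjusted p = 0.00168), the opposite direction to Hba-a1, and both calls held without each array in turn. At 0 h, 1 of the 21 was already higher in Y577F cells, Tal1 at 0.49, and 0 were lower. That 0 h call was lost without 0 h array 1. The difference of the changes was called positive for 1 of the 21 genes and negative for 2. Nfe2, with a negative difference, was the 1 call of these that held without each array in turn. The positive one was Tal1, at 0.38 ± 0.09 (limma adjusted p = 0.0263). The Tal1 difference was not called without 0 h array 1, without either 72 h array or without Y577F time array 2. The red cell transcription factor genes Gata1 and Klf1 were at 0.01 and -0.11 in Y577F cells and at 0.03 and 0.05 in FI-Delta cells, and the anion exchanger gene Slc4a1 at 0.24 and 0.09. None of Gata1, Klf1 and Slc4a1 was called in either line. Without Y577F time array 1 or 2 no erythroid gene rose in Y577F cells, and without FI-Delta time array 2 or 3, among others, 1 fell in FI-Delta cells.

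Markers of other myeloid cells moved over the same 72 h. Of 17 macrophage markers, 14 rose and none fell in Y577F cells (median 1.02), and 11 rose and none fell in FI-Delta cells (median 0.63). Without FI-Delta time array 3 the FI-Delta count was 6. Of 16 neutrophil granule markers, 2 rose and 6 fell in Y577F cells (median -0.10), and 11 rose and none fell in FI-Delta cells (median 1.01). At 72 h, 11 macrophage markers were higher and 1 was lower in Y577F cells, and 1 granule marker was higher and 13 were lower. At 0 h, 12 of the 16 granule markers were already lower in Y577F cells (median -0.86). That count was 10 to 12 with each array left out in turn, and 5 to 13 over the alternatives that kept 1 value per gene. At 0 h, 3 of the 17 macrophage markers were higher and 1 was lower, and none was called without 0 h array 1. The macrophage markers Ctss and Ccr2 rose by 3.14 and 2.53 in Y577F cells and by 1.48 and 0.91 in FI-Delta cells. Vcam1 and Cd163, which mark iron-recycling macrophages, were not called in either line, at -0.07 and 0.02 in Y577F and 0.01 and -0.26 in FI-Delta cells. The part of these markers' cell types in the changes of the 8 genes was not tested.

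NRF2, encoded by Nfe2l2, is a transcription factor known to act on Hmox1, Fth1 and Slc40a1. Nfe2l2 mRNA rose by 0.93 ± 0.12 in Y577F cells (limma adjusted p = 0.000221) and was at 0.42 ± 0.12 in FI-Delta cells (limma adjusted p = 0.0643). Of 18 NRF2 targets and partners, Nfe2l2 included and Hmox1 left out, 4 rose and 3 fell in Y577F cells and 4 rose and none fell in FI-Delta cells. In Y577F cells the quinone reductase gene Nqo1 rose by 0.63 ± 0.10 (limma adjusted p = 0.00094) and the peroxiredoxin gene Prdx1 by 0.56 ± 0.10 (limma adjusted p = 0.00219), while Gclm, a subunit of the enzyme that starts glutathione synthesis, fell by 0.51 ± 0.08 (limma adjusted p = 0.00103). Pgd also rose in Y577F cells, at 0.54, and Gclc and Sqstm1 fell, at -0.52 and -0.47. Each of these last calls held in 9 of 10 fits that left out an array. In FI-Delta cells the cystine transporter gene Slc7a11 rose by 1.00 ± 0.15 (limma adjusted p = 0.00125), Pgd by 0.83 ± 0.14 (limma adjusted p = 0.00293) and Gsr by 0.61 ± 0.12 (limma adjusted p = 0.00944). The Gsr call was lost under scale normalization between arrays. Among 14 iron-sulfur cluster assembly genes, 2 rose and 3 fell in Y577F cells and 1 rose and 1 fell in FI-Delta cells. Without Y577F time array 1 these Y577F counts were 1 and 0, and without FI-Delta time array 1, 3 fell in FI-Delta cells.

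Over all 10 arrays, the features most like each gene were found by the cosine of the turned log2 ratios, without centring. For Slc40a1 these were Ano10 (0.993), Dgat2 (0.992) and Dstn (0.991), and for Tfrc the cell-cycle genes Cks2 (0.988) and Mybl2 (0.987), followed by Mfsd13a (0.972). Fth1 was most like Tnfrsf1b (0.982), Cd53 (0.981) and Rab7 (0.978). Hp was most like Trpm2 (0.983), Tnfrsf1a (0.974) and Acaa2 (0.969). Slc11a1 was most like the lysosomal protease gene Ctsb (0.969), and Hmox1 like the transcription factor gene Tfe3 (0.966). Hba-a1 was most like 4930488B01Rik (0.982), Apex1 (0.981) and Nme1 (0.980). The closest feature to Slc11a2 was Zfp169 (0.947), the lowest best value of the 8. The arrays share RNA extracts, and these features were picked as the closest among the 15097 with a symbol, the 8 genes left out. The values are therefore a description.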

How the data were processed

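RNA of mouse FDB1 cells was compared on 10 two-colour arrays. The authors deposited 1 log ratio per spot and array, read here as a log2 ratio because base 2 is likely but not stated. Limma is named in the submitters' processing notes. Its settings, background correction and normalization were not given in the sources used here. Spot intensities were not used, so precision is set by how many arrays there are (median SE of a log2 change 0.0974 at 72 h between the lines).

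Of 23040 spots, 1243 control spots were left out. Probes of 1 gene symbol were averaged, which gave 20243 features. Symbols came from the platform annotation. Signs were turned by the dyes in the titles. A linear model with 3 group coefficients and a dye term was fitted to 9 hybridisations (the dye swap averaged, 5 residual and 6.34 prior degrees of freedom) with limma 3.58.1 in R 4.3.3, checked on simulated data. The dye term was called in no gene of the 8. Tests were two-sided with Benjamini-Hochberg adjustment over all 20243 features. Alternatives changed the dye term, dye swap, replicate block, arrays used, weights, scaling, centring, moderation, probe rule and feature set, and left out each array in turn.

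The 8 genes and the gene lists were chosen with earlier results of these data known. Named genes are the 8, up to 4 called genes of each list by size of change in a comparison (the 2 largest where none was called) and the 3 features closest to each gene by cosine. Others, such as Aco1, Ireb2, Alas2, Gata1, Klf1, Slc4a1, Vcam1, Cd163, Adgre1, Gclc, Sqstm1 and the embryonic globins, were named after their values were seen. The labels number replicates 1 to 4, and some arrays give these numbers to opposite lines. Numbers 1 and 2 were read as FI-Delta cultures and 3 and 4 as Y577F cultures, whatever their order in the title. This reading set the replicate blocks, and the numbers also set which arrays were averaged as a dye swap. Whether the numbers pair the samples could not be checked.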

Additional observations from a re-analysis of the deposited data

Results flagged for a closer look

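The 72 h change differed between Y577F and FI-Delta cells, by a test of the difference itself, for 6 of the 8 genes. The difference of the log2 changes, Y577F minus FI-Delta, was -1.06 for Slc40a1, whose rise was smaller in Y577F cells, and -1.05 for Tfrc, which fell in Y577F cells. It was 0.62 for Hmox1, 0.52 for Slc11a1 and 0.51 for Fth1, and -0.52 for Hba-a1. The calls for Slc40a1 and Tfrc held under all 21 alternatives. The other four were lost with the direct arrays alone and in a fit that had 1 coefficient per RNA extract and left out the dye term.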

How the results depend on the processing

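Across 21 alternatives, 15 of the 24 calls on the 8 genes held throughout, none changed sign, and 3 of the 16 values that were not called were called under some alternative. Calls over all features moved more. With the replicate block by extract and no dye term, 1721 features were called over 72 h in Y577F cells (3649 in the analysis reported), 544 in FI-Delta cells (1652), 1060 between lines at 72 h (2609), 22 at 0 h (287) and 440 for the difference (1871). The replicate block by culture gave 130 at 0 h. The direct arrays alone gave 939 in FI-Delta cells, 176 at 0 h and 371 for the difference, and array weights gave 3786 in FI-Delta cells, 5537 at 72 h and 445 at 0 h. Of the 8 genes, 0 had a positive difference with the direct arrays alone, which kept 1 lower at 0 h. The block by extract without the dye term left 0 lower at 0 h and 0 with a positive difference. Under the same block, the calls lost were Slc40a1 at 0 h (-0.63), Slc11a1 (0.42) and Hba-a1 (-0.39) at 72 h, and the differences for Slc11a1 (0.48), Hmox1 (0.64), Fth1 (0.46) and Hba-a1 (-0.56). Without the dye term the Hba-a1 difference between lines at 72 h was not called (-0.37, limma adjusted p = 0.0585).

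Leaving out each array in turn gave 1949 to 3627 features in Y577F cells (lowest without Y577F time array 1), 887 to 1953 in FI-Delta cells (lowest without FI-Delta time array 3), 1403 to 2629 at 72 h (lowest without 72 h array 2), 57 to 299 at 0 h (lowest without 0 h array 1) and 911 to 1861 for the difference (lowest without 72 h array 2). Of the 8 genes, 1 to 4 were then higher at 72 h and 1 to 3 had a positive difference, each lowest without 72 h array 2. All alternatives could be run. The design had 2 or 3 arrays per side and, as the labels were read, 2 cultures per line. A difference of the size seen for Slc11a2 (0.39 ± 0.13) was not settled with these numbers of arrays and cultures.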
